A study of Mus musculus with 6 samples.

Results

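The genes of iron handling in the small intestine were read in RNA-seq libraries of its epithelium. They were 8 named genes of the 51912 listed, chosen by name but with earlier results of these data known. They cover uptake (Cybrd1, Slc11a2), export (Slc40a1, Heph), storage (Fth1, Ftl1), uptake of transferrin-bound iron (Tfrc) and haem breakdown (Hmox1). All 8 were found, and all 8 passed the filter on low counts. The libraries came from sorted small intestinal cells, labelled epithelium, of C57BL/6 mice kept in 1 of 3 ways. Antigen free (AF) mice lacked a microbiota and antigens from food, germ free (GF) mice lacked the microbiota alone, and specific pathogen free (SPF) mice were free of particular pathogens only. Each group had 2 libraries: AF replicates 2 and 3, GF replicates 1 and 3, and SPF replicates 3 and 4. AF versus GF concerns food antigens in mice without microbes, GF versus SPF concerns the microbiota, and AF versus SPF concerns both at once.

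Several features of the groups limit them as models. The labels do not say what the diets were made of or how much iron they held, how old the mice were, or by which markers the cells were sorted. Nothing says whether the 2 libraries of a group came from separate mice, so p-values measure the spread between these libraries, which may be technical. The processed files of each group carry a mark of their own that both its libraries share, and whatever it stands for cannot be told apart from the group. Y-linked RNA was present in all 4 AF and GF libraries and at 0 in both SPF libraries, in CPM (counts scaled to the TMM-adjusted size of each library). Xist, the X-inactivation RNA of females, was at 0 and 0.178 CPM in AF libraries, at 0.109 and 14.8 CPM in GF libraries, and at 129.7 and 96.6 CPM in SPF libraries. A difference by sex and one by group therefore cannot be told apart in either comparison with SPF mice.

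Iron enters the body through enterocytes of the upper small intestine. Ferric iron is reduced at the brush border and carried in by a divalent metal transporter, then held in ferritin or passed out through ferroportin, with a copper oxidase on the blood side. The liver hormone hepcidin removes the ferroportin protein, and the hypoxia factor HIF-2α is known in mice to drive transcription of several of these genes in the intestine. Inside the cell, iron regulatory proteins bind a short RNA hairpin, the iron-responsive element. Binding in a 5′ UTR lowers translation, and binding in the 3′ UTR of the transferrin receptor message protects it from decay. RNA levels therefore report only part of this control.

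The hairpins are shown because they mark where messages of the 8 genes match 1 fixed form of this post-transcriptional switch. GENCODE M21 transcripts of GRCm38 were searched on the transcribed strand for a C, any 5 bases, the loop CAGTGN and 5 bases that pair with the first 5 by Watson-Crick or G-U pairs. Such a match stood in the 5′ UTR of 31 of 20899 genes (0.148%) and in the 3′ UTR of 129 of 21022 genes (0.614%). Of the 8 genes, Fth1, Ftl1 and Slc40a1 had 1 match each in a 5′ UTR, and Tfrc had 4 in its 3′ UTR. The loop is in capitals.
Fth1 5′ UTR, chr19:9982732-9982760, plus strand: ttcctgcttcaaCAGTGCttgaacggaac
Ftl1 5′ UTR, chr7:45459779-45459807, minus strand: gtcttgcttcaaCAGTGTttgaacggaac
Slc40a1 5′ UTR, chr1:45925465-45925493, minus strand: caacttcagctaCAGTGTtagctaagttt
Tfrc 3′ UTR, chr16:32631219-32631247, plus strand: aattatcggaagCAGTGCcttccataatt
Tfrc 3′ UTR, chr16:32631598-32631626, plus strand: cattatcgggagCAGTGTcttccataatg
Tfrc 3′ UTR, chr16:32631663-32631691, plus strand: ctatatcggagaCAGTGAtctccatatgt
Tfrc 3′ UTR, chr16:32631710-32631738, plus strand: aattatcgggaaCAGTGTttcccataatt
The other genes, Slc11a2, Cybrd1, Heph and Hmox1, had no match, which says only that these letters are not in their annotated UTRs. The search allowed no unpaired base in the 5-base stem, so it cannot say that these 4 messages lack the switch.

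The libraries held 16109488 to 19417054 expected counts, and 1 count was worth 0.0365 to 0.0785 CPM. Genes listed for the enterocyte brush border, here called brush border genes, also include Apoa1, Apoa4, Apob and Fabp2, which encode proteins of fat transport. All were abundant in every library, with 14 of 14 above 0 CPM throughout. Their sum was 31185 and 23361 CPM in AF, 23695 and 35890 CPM in GF, and 30999 and 63745 CPM in SPF libraries. Within it, Apoa1 and Apoa4 were at 9888.62 and 5655.13 CPM in AF replicate 2, and at 16052.5 and 17985.2 CPM in SPF replicate 4. SPF replicate 4 stood apart from the other 5 libraries: its brush border sum was the highest, and its summed level of 12 proliferation genes, 70.9 CPM, was the lowest. Its Paneth cell sum of 41.5 CPM and goblet cell sum of 2807 CPM were the lowest as well. Genes listed for the proximal small intestine, Slc2a2 among them, summed to 5400 and 4363 CPM in AF and 4285 and 5450 CPM in GF libraries. In SPF libraries they summed to 5630 and 12013 CPM. Genes listed for the distal small intestine summed to 1137 and 762 CPM in AF and 1793 and 995 CPM in GF libraries. Their sums in SPF libraries were 978 and 1054 CPM. The part of gut region in the results was not tested. The libraries are bulk, so fewer cells of a type and less RNA per cell cannot be told apart.

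Slc40a1, Slc11a2 and Heph, the exporter, the importer and the export oxidase, were lower in both AF and both GF libraries than in either SPF library, with fold changes of 0.424, 0.430 and 0.460 in AF versus SPF. Of the ferritin genes, Ftl1 was also below SPF in both groups, while Fth1 in AF lay within the SPF range, and the fitted fold change in AF versus GF was 2.22 for Fth1 and 1.00 for Ftl1. Here and below, a lack of overlap between groups is a description, and the share of all genes that show it is not given. With 2 libraries against 2, the smallest exact two-sided permutation p is 0.333, even where groups do not overlap. None of the 8 passed edgeR's quasi-likelihood test at a Benjamini-Hochberg adjusted p of 0.05 over the 13644 genes tested. Over all genes, 6 were called in AF versus SPF (0.044%), 2 in AF versus GF (0.0147%) and 2 in GF versus SPF (0.0147%). At an unadjusted p under 0.05, 3 of the 8 passed in AF versus SPF, 0 in AF versus GF and 2 in GF versus SPF, beside 11.3, 3.6 and 6.71% of all genes.

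**Figure D1:**
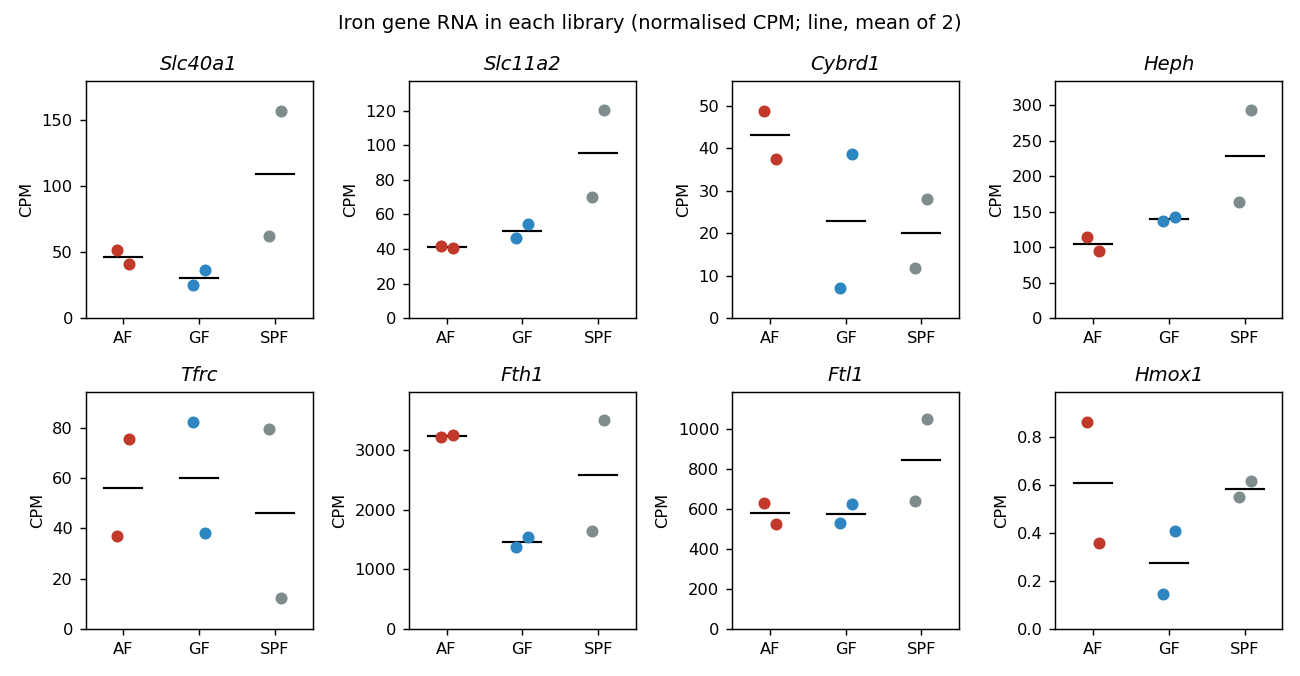
Level of each iron gene in each library (points, CPM on TMM-scaled totals, each panel with its own axis from 0) in AF, GF and SPF mice, with a line at the mean of the 2 libraries. Slc40a1, Slc11a2 and Heph are highest in the 2 SPF libraries, Fth1 is lower in both GF than in both AF libraries, and Tfrc is spread widely within each group.

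Slc40a1 (ENSMUSG00000025993, chr1:45908068-45926523) encodes ferroportin, the only known iron exporter of mammalian cells. Its level was 51.5 and 41.3 CPM in AF libraries, 24.9 and 36.7 CPM in GF libraries, and 62.5 and 156.7 CPM in SPF libraries. The groups did not overlap, in the order SPF, AF, GF, but the SPF libraries lay further apart from each other than the lower of them lay from the AF libraries. The AF mean of 46.4 ± 7.23 CPM stood beside an SPF mean of 109.6 ± 66.6 CPM (SD, n = 2 each), a log2 fold change of -1.24 (95% interval -2.36 to -0.12). The GF mean was 30.8 ± 8.35 CPM, and GF versus SPF gave the widest difference of the 8 genes, -1.83 on the log2 scale (95% interval -2.97 to -0.69). By edgeR's quasi-likelihood test the unadjusted p was 0.0356 in AF versus SPF and 0.00769 in GF versus SPF, and the adjusted p was 0.406 and 0.738. AF versus GF gave 0.59 (95% interval -0.52 to 1.71), which turned to -0.20 with limma on log2(TPM + 1), where the median of all genes was -0.36. TPM, which also scales by transcript length, was 17.5 and 18.1 in AF, 18.8 and 22.5 in GF, and 39.0 and 64.7 in SPF libraries. RSEM's abundance-weighted length of the gene was 1545 bases in GF replicate 3 and 2175 to 2407 bases in the other 5 libraries.

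Heph (ENSMUSG00000031209, chrX:96455359-96574485) encodes hephaestin, the membrane copper oxidase that works with ferroportin. It was read at 115.1 and 95.1 CPM in AF libraries, 136.9 and 142.8 CPM in GF libraries, and 163.4 and 293.7 CPM in SPF libraries. No groups overlapped, and the order was SPF, GF, AF. The AF mean was 105.1 ± 14.1 CPM and the SPF mean 228.5 ± 92.1 CPM (SD, n = 2 each), a log2 fold change of -1.12 (95% interval -1.95 to -0.30) with an adjusted p of 0.389 by edgeR's quasi-likelihood test. GF, at 139.8 ± 4.14 CPM, differed from SPF by -0.71 (95% interval -1.53 to 0.11) and AF from GF by -0.41 (95% interval -1.23 to 0.40). Heph is X-linked, so the difference in sex-linked RNA between SPF and the other libraries bears directly on it; its part in the result was not tested.

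Slc11a2 (ENSMUSG00000023030, chr15:100387898-100425072) encodes DMT1, which carries ferrous iron across the brush border. Its level was 41.5 and 40.6 CPM in AF libraries, 46.1 and 54.4 CPM in GF libraries, and 70.2 and 120.6 CPM in SPF libraries. The groups again did not overlap, in the order SPF, GF, AF, and the AF libraries lay within 1 CPM of each other. AF averaged 41.0 ± 0.626 CPM against 95.4 ± 35.6 CPM in SPF (SD, n = 2 each). The log2 fold change was -1.22 (95% interval -1.94 to -0.49), with an unadjusted p of 0.00629 and an adjusted p of 0.38 by edgeR's quasi-likelihood test. GF averaged 50.2 ± 5.89 CPM and differed from SPF by -0.92 (95% interval -1.65 to -0.20; adjusted p = 0.738, edgeR). AF versus GF gave -0.29 (95% interval -1.01 to 0.43).

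**Figure D2:**
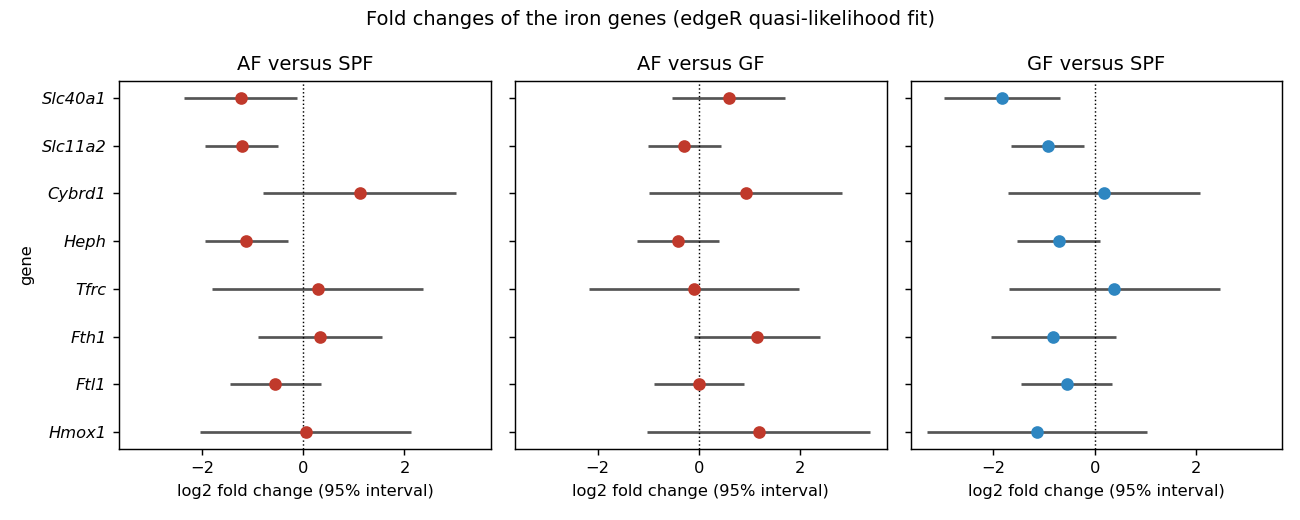
Log2 fold changes of the 8 iron genes (points) with 95% intervals from edgeR's quasi-likelihood fit of all 6 libraries, for AF versus SPF, AF versus GF and GF versus SPF. The intervals of Slc40a1, Slc11a2 and Heph lie below 0 in AF versus SPF, those of Slc40a1 and Slc11a2 in GF versus SPF, and every interval spans 0 in AF versus GF.

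How far these 3 genes stood below SPF depended on which SPF library was used. Without SPF replicate 4, AF versus SPF came to -0.43 for Slc40a1, -0.78 for Slc11a2 and -0.64 for Heph on the log2 scale, and GF versus SPF to -1.03, -0.49 and -0.23. Without SPF replicate 3, AF versus SPF came to -1.76, -1.56 and -1.49. GF versus SPF without that library was -2.35 for Slc40a1 and -1.27 for Slc11a2. With SPF replicate 3 left out, 1 SPF library remains, assumed to vary like the other groups, and it is the one rich in brush border and poor in crypt RNA. Scaling the libraries to 14 brush border genes, an alternative chosen after the data were seen, left AF versus SPF at -0.30, -0.32 and -0.24 for Slc40a1, Slc11a2 and Heph. Under that scaling GF versus SPF was -1.19 for Slc40a1, -0.33 for Slc11a2 and -0.09 for Heph. With the same scaling the median of all genes was 0.78 in AF versus SPF and 0.51 in GF versus SPF, against 0.01 and 0.02 with TMM, and the 3 genes lay below it in both comparisons.

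**Figure D3:**
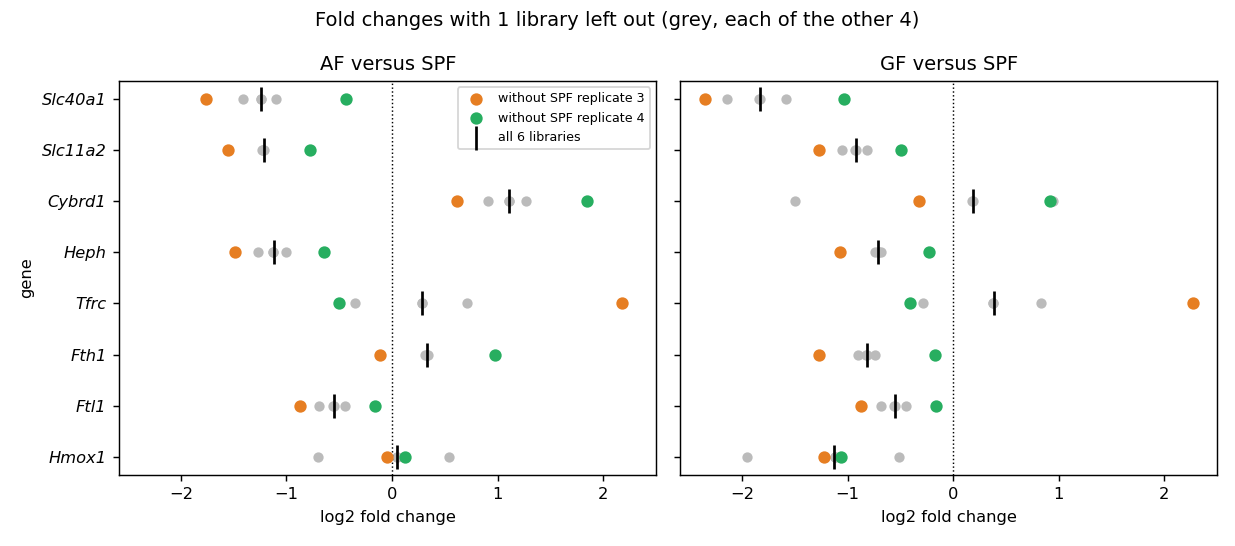
Log2 fold changes of each gene in AF versus SPF and GF versus SPF with all 6 libraries (black bar), without SPF replicate 3 (orange), without SPF replicate 4 (green) and without each of the other 4 libraries (grey). Slc40a1, Slc11a2 and Heph stay below 0 in both comparisons, whereas Tfrc runs between -0.51 and 2.18 in AF versus SPF.

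Cybrd1 (ENSMUSG00000027015, chr2:71117923-71142926) encodes DCYTB, a brush border reductase of ferric iron. It stood at 48.6 and 37.4 CPM in AF libraries, 7.07 and 38.5 CPM in GF libraries, and 11.9 and 28.1 CPM in SPF libraries. Both AF libraries were above both SPF libraries, in the opposite direction to Slc11a2, while the GF libraries spanned the whole SPF range and reached the AF range. The AF mean of 43.0 ± 7.91 CPM was 2.16 times the SPF mean of 19.96 ± 11.4 CPM (SD, n = 2 each) by the fit, a log2 fold change of 1.11 with a 95% interval of -0.80 to 3.03 and an adjusted p of 0.632 (edgeR, quasi-likelihood). AF versus GF was 0.93 (95% interval -0.98 to 2.83) and GF versus SPF 0.19 (95% interval -1.71 to 2.09). The GF value rested on which library was used: with GF replicate 1 left out AF versus GF came to 0.16, and with GF replicate 3 left out to 2.60.

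Ferritin, a shell of heavy and light chains that holds iron as a mineral, was the most abundant product of the 8 genes. Fth1 (ENSMUSG00000024661, chr19:9980598-9985098) encodes the heavy chain, which oxidises iron, and ranked 25 to 35 among all genes by TPM. Its level was 3231 and 3265 CPM in AF libraries, 1380 and 1543 CPM in GF libraries, and 1640 and 3515 CPM in SPF libraries. The AF libraries were close together and well above both GF libraries, and the SPF libraries ran from just above GF to above AF. AF averaged 3248 ± 23.9 CPM against 1462 ± 115.2 CPM in GF (SD, n = 2 each), a log2 fold change of 1.15 (95% interval -0.09 to 2.40) with an unadjusted p of 0.0643 and an adjusted p of 1 by edgeR's quasi-likelihood test. The difference was between 0.71 and 1.45 on the log2 scale in the 19 alternatives run. Against the SPF mean of 2577 ± 1326 CPM, AF differed by 0.33 (95% interval -0.90 to 1.56) and GF by -0.82 (95% interval -2.06 to 0.42). Without SPF replicate 3 AF versus SPF was -0.12, and without SPF replicate 4 it was 0.98.

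Ftl1 (ENSMUSG00000050708, chr7:45457944-45459884) encodes the light chain, which aids mineral formation, and ranked 59 to 91 by TPM. It was read at 630.1 and 525.6 CPM in AF libraries, 530.5 and 623.4 CPM in GF libraries, and 641.9 and 1052 CPM in SPF libraries. AF and GF overlapped entirely, with means of 577.8 ± 73.9 and 576.9 ± 65.7 CPM, and both lay below the SPF mean of 847 ± 290 CPM (SD, n = 2 each). The log2 fold change was -0.55 both in AF versus SPF (95% interval -1.45 to 0.35) and in GF versus SPF (95% interval -1.45 to 0.35), with adjusted p of 0.612 and 0.782 by edgeR's quasi-likelihood test. In AF versus GF it was 0.00 (95% interval -0.89 to 0.90). Ferritin has near-identical pseudogene copies, between which reads can be split. Of 15 listed relatives of the ferritin genes 2 had reads, Ftl1-ps1 and Ftl2-ps, and together they held 1.05 to 2.79% of the Ftl1 count. Summing them with Ftl1 left AF versus SPF at -0.56. Scaled to brush border genes, Ftl1 turned to 0.31 in AF versus SPF and 0.0313 in GF versus SPF, beside the shift of all genes given above.

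The balance of the 2 chains was followed within each library, as the ratio of Fth1 to Ftl1 TPM, a measure chosen after the values were seen. The ratio was 5.76 and 7.01 in AF libraries, 2.94 and 2.77 in GF libraries, and 2.90 and 3.76 in SPF libraries. Both AF libraries were above all 4 others, and GF and SPF overlapped. AF averaged 6.39 ± 0.882 against 3.33 ± 0.610 in SPF (SD, n = 2 each), 1.92 times as high, with an exact two-sided permutation p of 0.333, the smallest that 2 libraries against 2 allow. The ratio in AF was 2.23 times that in GF, which averaged 2.86 ± 0.126 (exact two-sided permutation p = 0.333). GF versus SPF was 0.864 times as high (exact two-sided permutation p = 0.667). Leaving out any 1 library kept AF versus SPF between 0.76 and 1.13 and AF versus GF between 1.01 and 1.30 on the log2 scale. The ratio does not depend on how libraries are scaled to each other.

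**Figure D4:**
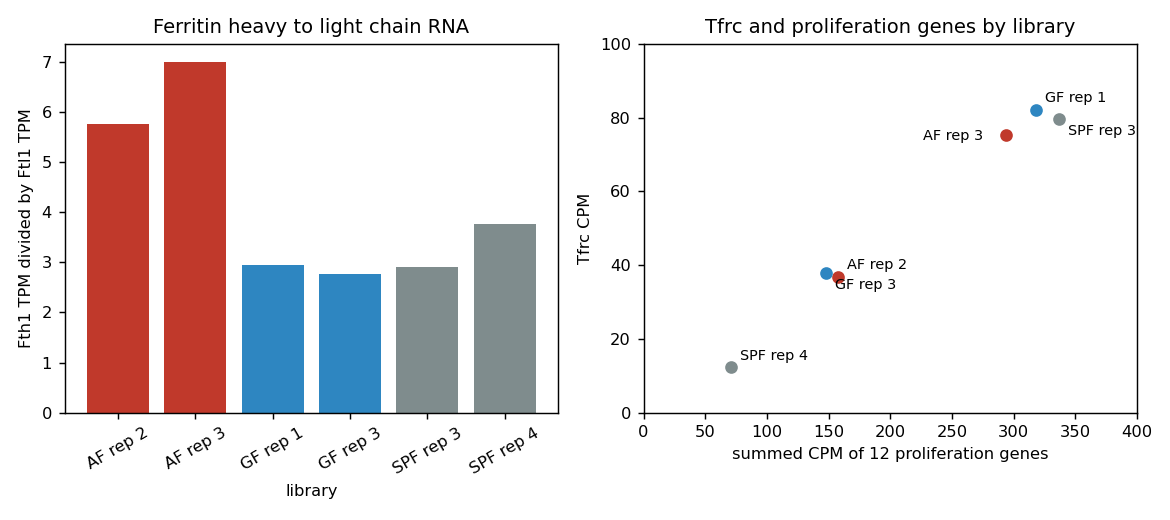
Left, the ratio of Fth1 to Ftl1 TPM in each library (bars, from 0): 5.76 and 7.01 in AF against 2.77 to 3.76 in GF and SPF. Right, Tfrc CPM against the summed CPM of 12 proliferation genes in each library (points coloured as the bars): the 3 libraries with sums from 294.1 CPM up have Tfrc above 75 CPM, and SPF replicate 4 is lowest on both axes.

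Tfrc (ENSMUSG00000022797, chr16:32608920-32632794) encodes the transferrin receptor, through which dividing cells take up iron from the blood. Its level was 36.9 and 75.4 CPM in AF libraries, 82.2 and 38.0 CPM in GF libraries, and 79.6 and 12.4 CPM in SPF libraries. The spread within a group exceeded any distance between group means, which were 56.2 ± 27.2 CPM in AF, 60.1 ± 31.2 CPM in GF and 46.0 ± 47.5 CPM in SPF (SD, n = 2 each). Log2 fold changes were 0.29 in AF versus SPF, -0.10 in AF versus GF and 0.38 in GF versus SPF, with adjusted p of 0.932, 1 and 0.923 by edgeR's quasi-likelihood test. The sum of 12 proliferation genes was 157.6 and 294.1 CPM in AF libraries, 318.0 and 147.6 CPM in GF libraries, and 336.7 and 70.9 CPM in SPF libraries. The libraries high and low in Tfrc were thus those high and low in proliferation RNA, in every group. With the proliferation score as a covariate, chosen after the data were seen, AF versus SPF was 0.03 for Tfrc, and -0.75, -0.98 and -0.87 for Slc40a1, Slc11a2 and Heph.

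Hmox1 (ENSMUSG00000005413, chr8:75093621-75100589) encodes haem oxygenase 1, the inducible enzyme that frees iron from haem. It was barely detected, at 11 and 6 counts in AF libraries, 4 and 6 counts in GF libraries, and 12 and 9 counts in SPF libraries, or 0.146 to 0.864 CPM. No difference was detectable at this depth: the log2 fold changes of 0.05 in AF versus SPF, 1.18 in AF versus GF and -1.13 in GF versus SPF had 95% intervals that spanned 0 by more than 1 unit on either side. Hmox1 is high in macrophages, and the 13 macrophage genes summed to 6.36 to 13.3 CPM over the libraries. The macrophage markers Cd163 and Marco were at 0 in all 6 libraries, and Adgre1 was at most 0.475 CPM. Apart from these and Vcam1, every macrophage gene listed was detected in all 6 libraries. Itgam reached 7.28 CPM and Cd68 2.02 CPM, both in SPF replicate 3. Globin and other red cell genes summed to 0.274 to 43.8 CPM, highest in GF replicate 3.

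**Figure D5:**
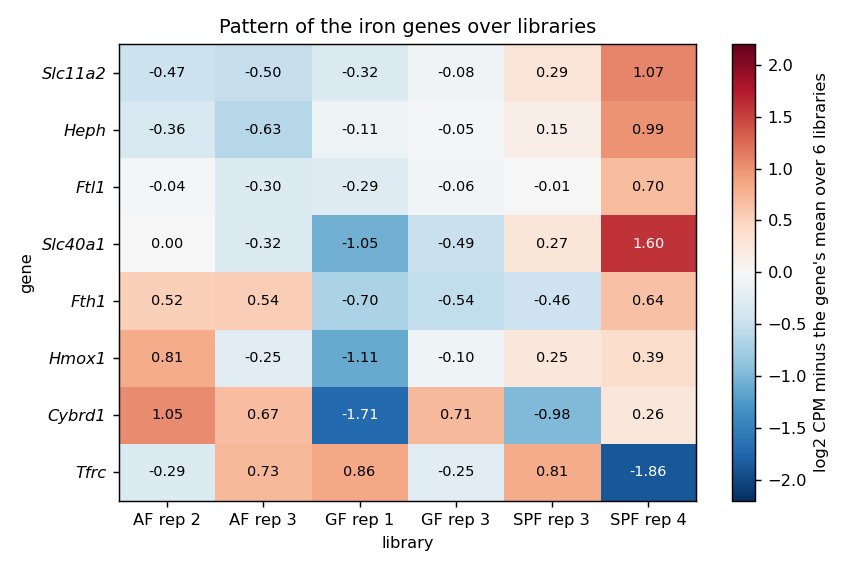
Log2 CPM of each iron gene in each library minus the gene's mean over the 6 libraries (colour and number, red above and blue below the mean). SPF replicate 4 is highest for Slc40a1 (1.60), Slc11a2 (1.07), Heph (0.99) and Ftl1 (0.70) and lowest for Tfrc (-1.86), and Fth1 is above its mean in both AF libraries (0.52 and 0.54).

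The genes could be set beside each other by their pattern over libraries, measured as the root mean square difference in centred log2 CPM over the 6 libraries, as a description. The importer Slc11a2 and the oxidase Heph were the closest pair of the 8, with a difference of 0.129, followed by Heph and Ftl1 at 0.244. Slc40a1 and Tfrc were the farthest apart, at 1.69. Among 8684 genes at 5 CPM or more, those nearest to Slc40a1 were Ifit1bl2 (0.158), the basolateral sugar transporter gene Slc2a2 (0.164) and Ltb4r2 (0.204). The nearest to Slc11a2 were Dll1 (0.0668), Sec24d (0.103) and Ddx58 (0.111), and to Heph they were Tmem19 (0.0513), Btnl1 (0.0695) and Sec24d (0.0722). Fth1 was nearest to Khk, the gene of ketohexokinase of fructose metabolism (0.0921), then Vwce (0.140) and Eepd1 (0.147). Ftl1 was nearest to Myo5b (0.0495), Golga4 (0.0503) and Tollip (0.0522). Tfrc was nearest to Cip2a (0.0710), the condensin gene Smc2 (0.0715) and Dis3 (0.0781). Cybrd1 had no close match, its nearest being Catsper4 (0.296), Scarf1 (0.330) and Col7a1 (0.355), and nor had Hmox1, with Gprin1 (0.190), AA467197 (0.234) and Trim15 (0.235).

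Outside the 8, a list of 63 genes of iron and haem handling was read in the same fit, and 52 could be tested. None of them passed edgeR's quasi-likelihood test in any comparison. At an unadjusted p under 0.05 there were 8 of 52 in AF versus SPF, 2 in AF versus GF and 7 in GF versus SPF, beside 11.3, 3.6 and 6.71% of all genes. In AF versus SPF 19 of the 52 were higher and 33 lower, with a median log2 fold change of -0.13 beside 0.01 for all genes. AF versus GF had 25 higher and 27 lower (median -0.02, all genes -0.02), and GF versus SPF 21 higher and 31 lower (median -0.08, all genes 0.02). These splits follow the scaling. With library totals alone they were 10 and 42, 6 and 46, and 32 and 20, and scaled to brush border genes 47 and 5, 42 and 10, and 43 and 9, as the median of all genes moved too. The 11 tested genes listed for iron and haem transport had a median of -0.83 in AF versus SPF, -0.23 in AF versus GF and -0.18 in GF versus SPF. Not all of them encode transporters, as the list includes the reductase family genes Steap1, Steap2 and Steap3. Steap1 was at 0.916 CPM at most. The AF versus SPF median was -0.42 without AF replicate 2, -0.35 without SPF replicate 3 and -0.57 without SPF replicate 4, and leaving out SPF replicate 3, GF replicate 3 or GF replicate 1 put the GF versus SPF median at -0.59, -0.29 or -0.09. In AF versus GF it was -0.47 without GF replicate 3. The AF versus SPF median was also -0.42 both with a filter of 1 CPM in 2 libraries and with only the 2 groups compared. Scaled to brush border genes their medians were 0.04, 0.02 and 0.38, beside 0.78, 0.26 and 0.51 for all genes. Hamp, the hepcidin gene, and Cp, the plasma copper oxidase ceruloplasmin, were too low to test, at no more than 0.136 and 0.206 CPM.

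Atp7a had the smallest p of these genes in AF versus SPF. It encodes a copper-exporting pump whose copper reaches secreted and membrane oxidases. Its level was 4.56 and 6.24 CPM in AF libraries, 8.06 and 7.33 CPM in GF libraries, and 13.8 and 12.6 CPM in SPF libraries. The groups did not overlap, and AF versus SPF was -1.29 ± 0.28 on the log2 scale (SE; adjusted p = 0.349, edgeR). Like Heph, Atp7a is X-linked.

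Epas1, which encodes the HIF-2α subunit, was at 36.4 and 33.0 CPM in AF libraries, 19.6 and 18.9 CPM in GF libraries, and 27.5 and 48.4 CPM in SPF libraries. The GF libraries were below all others. Its log2 fold change was 0.85 ± 0.29 in AF versus GF and -0.98 ± 0.29 in GF versus SPF (SE), with adjusted p of 1 and 0.738 by edgeR's quasi-likelihood test, and -0.13 ± 0.29 in AF versus SPF.

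The 12 genes listed as targets of hypoxia factors lay on both sides of 0. Their median was 0.10 in AF versus SPF, 0.28 in AF versus GF and -0.18 in GF versus SPF, and none was called by edgeR's quasi-likelihood test (3, 1 and 2 of the 12 at an unadjusted p under 0.05, beside 11.3, 3.6 and 6.71% of all genes). In AF versus GF 10 were higher, against 6 with library totals alone, 5 in both limma fits on TPM and 12 scaled to brush border genes. Their AF versus GF median turned to -0.0396 with library totals alone, beside -0.38 for all genes. With limma on TPM plus 1 or 0.1 it was -0.0351 and -0.0376, beside -0.36 and -0.42 for all genes. Leaving out 1 library put the median of the 12 between -0.10 (without SPF replicate 3) and 0.17 (without SPF replicate 4) in AF versus SPF, at up to 0.47 (without GF replicate 3) in AF versus GF, and between -0.33 (without SPF replicate 3) and -0.11 (without GF replicate 3) in GF versus SPF. Ndrg1, a stress gene induced by hypoxia and by loss of iron, was at 81.5 and 101.1 CPM in AF libraries, 108.9 and 75.5 CPM in GF libraries, and 32.3 and 28.6 CPM in SPF libraries. Both microbe-free groups were thus above SPF, by 1.58 ± 0.27 for AF and 1.60 ± 0.27 for GF on the log2 scale (SE), with adjusted p of 0.293 and 0.738 by edgeR's quasi-likelihood test. Pfkfb3, which encodes a regulator of glycolysis, went the other way, at 25.2 and 24.6 CPM in AF libraries, 14.6 and 31.01 CPM in GF libraries, and 62.5 and 117.9 CPM in SPF libraries. Car9, a carbonic anhydrase gene, was at 57.8 and 61.7 CPM in AF libraries, 41.2 and 29.6 CPM in GF libraries, and 34.03 and 35.7 CPM in SPF libraries, 0.76 ± 0.22 above GF on the log2 scale (SE; adjusted p = 1, edgeR).

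Genes of the NRF2 and BACH1 circuit, the transcription factors that also control Hmox1 and the ferritin genes, were mostly lower in AF and GF than in SPF mice under TMM scaling. Of 13 tested, 12 were lower in AF versus SPF, 10 in AF versus GF and 13 in GF versus SPF, with medians of -0.74, -0.16 and -0.48 beside 0.01, -0.02 and 0.02 for all genes. The 13 count regulators of the circuit with its targets: Nfe2l2, Keap1 and Bach1 were at -0.21, -0.69 and -0.41 in AF versus SPF. Without SPF replicate 4 the median was -0.36 in AF versus SPF and -0.09 in GF versus SPF, where 10 were lower, and without SPF replicate 3 it was -1.05 and -0.81. In AF versus GF it was -0.27 without GF replicate 1. None of these passed edgeR's quasi-likelihood test, and 5, 1 and 2 of the 13 had an unadjusted p under 0.05, beside 11.3, 3.6 and 6.71% of all genes. Scaled to brush border genes, 5, 4 and 4 of the 13 were lower, with medians of 0.13, 0.10 and 0.11 beside 0.78, 0.26 and 0.51 for all genes. Nqo1, which encodes a quinone reductase, was at 5.26 and 4.46 CPM in AF libraries, 18.9 and 11.1 CPM in GF libraries, and 15.4 and 26.7 CPM in SPF libraries. AF lay below both other groups, by -2.12 ± 0.40 against SPF and -1.63 ± 0.40 against GF on the log2 scale (SE), with adjusted p of 0.304 and 1 by edgeR's quasi-likelihood test.

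Transcripts of other cell types and mitochondrial RNA moved between libraries beside these results. The lymphocyte genes summed to 14.1 and 10.9 CPM in AF libraries, 29.0 and 283.4 CPM in GF libraries, and 167.8 and 63.6 CPM in SPF libraries. The 6 tuft cell genes summed to 156.5 and 152.7 CPM in AF libraries, 73.6 and 104.8 CPM in GF libraries, and 51.5 and 13.99 CPM in SPF libraries, with no overlap between groups. The 8 enteroendocrine genes summed to 2526 and 3331 CPM in AF libraries, 1593 and 3966 CPM in GF libraries, and 1374 and 346.3 CPM in SPF libraries, so that both SPF libraries were the lowest. Mitochondrial genes, taken by their mt- symbols, held 35.3 and 28.7% of the counts in AF libraries, 17.9 and 32.1% in GF libraries, and 18.1 and 27.2% in SPF libraries. The part of these transcripts in the results was not tested.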

How the data were processed

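RNA was read from 6 libraries of sorted mouse small intestinal epithelium, 2 per group, grouped by their labels. Alignment with STAR 2.5.2b, counting with RSEM, use of edgeR 3.16.5 and the builds GRCm38 and mm10 are named in the submitters' processing notes. The RSEM version, annotation release and strandedness were not given in the sources used here. Per the file headers, the authors deposited RSEM expected counts per gene, in which reads that fit several genes are split by estimate, with no scaling between libraries. Per the file headers, the same deposited tables hold TPM, the posterior standard deviation of the count and an abundance-weighted gene length. RSEM's posterior standard deviation was at most 0.145% of the count for the 8 genes.

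Expected counts were rounded, 23.5% of those above 0 not being whole. Symbols and 1-based coordinates came from GENCODE M21 (GRCm38), which matched 51719 of 51912 IDs, and 2 listed genes (Tf, Ahsp) found no match. edgeR 4.0.16 (R 4.3.3) fitted all 6 libraries together with TMM scaling, filterByExpr at its defaults and the quasi-likelihood F test (legacy on), which left 13644 genes. The residual degrees of freedom were 3, the common biological variation coefficient was 0.368, and TMM factors were 0.791 to 1.41. Benjamini-Hochberg adjustment ran over all 13644 genes, with a threshold of 0.05. Standard errors were taken as the size of the log2 fold change over the root of its F value. Libraries of a group differed beyond sampling noise (chi-square per gene 44.6 in AF, 239 in GF and 195 in SPF), so none was counted as a duplicate. limma 3.58.1, DESeq2 1.42.0 and edgeR's likelihood ratio test were among the 19 alternatives, of which 17 were planned. Scaling to brush border genes, the proliferation covariate and the ferritin ratio were chosen after seeing the data. The fit was tested on simulated data in which every gene had the same dispersion and no library was an outlier. That test does not show how the fit behaves on these libraries.

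The 8 genes and the gene lists were chosen with earlier results of these data known. Outside the 8, the text names the 3 genes of smallest p per comparison in the iron, haem and regulator lists, and the 3 genes of nearest pattern to each of the 8 among those with a mean of at least 5 CPM, predicted genes left out. Sequences were read from the GENCODE M21 transcripts.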

Additional observations from a re-analysis of the deposited data

How the results depend on the processing

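No paired analysis was possible because the groups compared share at most 1 replicate number. Slc40a1, Slc11a2 and Heph kept their direction in AF versus SPF and GF versus SPF under every alternative run. The number of the 8 iron genes called in AF versus SPF was 0 in the main edgeR fit and 1 by the likelihood ratio test (Slc11a2, adjusted p = 0.0493). With no low-count filter it was 4 (Slc40a1, Slc11a2, Heph and Cybrd1) in AF versus SPF and 1 in GF versus SPF. Calls from fits with 1 library left out are not given, because 1 group then holds 1 library. Of the other iron and haem genes, 52 were tested in the main fit and 59 with no filter. Among them AF versus SPF had 1 call by DESeq2 and 2 with no filter, and GF versus SPF had 3 with no filter. Over all genes, DESeq2 called 272, 51 and 80 in AF versus SPF, AF versus GF and GF versus SPF. The likelihood ratio test called 298, 53 and 97, and the fit with no filter 804, 264 and 484. How many genes were tested with no filter is not given, so its calls cannot be set against a share of all genes. Some log2 fold changes turned sign, and the cause was not tested. With library totals alone, AF versus SPF was -0.0667 for Tfrc and -0.20 for Hmox1, and AF versus GF was -0.34 for Ftl1. The median of all genes under that setting was itself -0.20 in AF versus SPF and -0.38 in AF versus GF. Scaled to brush border genes, Ftl1 was 0.31 in AF versus SPF and 0.0313 in GF versus SPF, and AF versus GF was 0.0059 for Slc11a2 and 0.18 for Tfrc. The median of all genes was then 0.78 in AF versus SPF, 0.51 in GF versus SPF and 0.26 in AF versus GF. With limma on TPM plus 1 or 0.1, AF versus GF was -0.20 (both) for Slc40a1 and -0.44 (both) for Ftl1, and GF versus SPF was -0.0501 and -0.0982 for Cybrd1. In these limma fits the median of all genes was -0.36 and -0.42 in AF versus GF, and 0.02 and 0.03 in GF versus SPF. Ftl1 in AF versus GF was also -0.0155 with no filter and -0.0017 with only the 2 groups. With 1 library left out, AF versus SPF ran from -0.51 to 2.18 for Tfrc, -0.12 to 0.98 for Fth1 and -0.70 to 0.54 for Hmox1, AF versus GF from -0.73 to 0.57 for Tfrc and -0.13 to 0.12 for Ftl1, and GF versus SPF from -1.50 to 0.95 for Cybrd1 and -0.41 to 2.27 for Tfrc. With 2 libraries a group, intervals are wide, and depth limits only Hmox1.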
